A study of Mus musculus with 12 samples.

Results

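The neutral lipases are the enzymes that take stored fat out of the lipid droplets of a cell, and the genes followed here encode these enzymes with the activator and the inhibitor of the first of them. The list held 9 genes, chosen by name for their role in breaking down stored fat: Pnpla2, Pnpla3, Abhd5, G0s2, Lipe, Mgll, Ces1d, Ces1g and Aadac. Earlier results of these data were known when the list was chosen. Of the 9 genes, 8 were measured among the 20143 genes of the deposited table, and Pnpla3 was not analysed here. Liver RNA was sequenced from 6 mice lacking Hsd17b13 (KO) and 6 wild-type mice (WT), with 1 library per mouse. Both groups were 8 to 10 weeks old at the start and ate CDAA-HFD, a choline-deficient diet high in fat that produces a fatty and scarred liver, for 12 weeks. How the allele was made, the strain and the sex of the mice are not stated in the labels. Litters are not stated either, so p-values measure the spread between these mice.

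Triglyceride is broken down in sequence. ATGL, encoded by Pnpla2, removes the first fatty acid. Its coactivator ABHD5 (CGI-58) and its inhibitor G0S2 set how active it is, hormone-sensitive lipase (Lipe) cuts diglyceride, and monoglyceride lipase (Mgll) finishes the work. In the hepatocyte a further set of esterases in the endoplasmic reticulum, among them those of Ces1d, Ces1g and Aadac, hydrolyses triglyceride that can be used for lipoprotein assembly. HSD17B13 is itself a protein of the hepatocyte lipid droplet, where ATGL also acts.

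Each library followed its genotype label. Hsd17b13 stood at 1.18 ± 0.181 CPM in KO and 347.5 ± 36.0 CPM in WT (mean ± SD, n = 6 each), where CPM, the unit of the authors' table, is a count per 1000000 counts of the library. Judged by the spacing of low values, 1 CPM stood for 46.3 to 77.9 counts, so the 8 genes rested on 734 counts (Lipe) to 14316 counts (Ces1g) per library, and this precision covers counting error only. KO mice 1 and 3 stood apart from the other KO mice in the split of counts between Rplp0 on chromosome 5 and its pseudogene Gm8730 on chromosome 8. Gm8730 took 31.4% and 31.6% of the counts of both in these mice, against 59.7% to 60.9% in KO mice 2, 4, 5 and 6 and 7.09% to 8.19% in WT. None of the 8 measured genes lies on chromosome 5, which carries Hsd17b13. The 10 hepatocyte markers summed to 71070 to 87140 CPM in KO and 70260 to 90680 CPM in WT. Of these markers 9 had a positive and 1 a negative difference (KO minus WT), with a median of 0.07 on the log2 scale. The 12 macrophage markers summed to 1415 to 1999 CPM in KO and 1736 to 2589 CPM in WT, but of the 11 tested 5 had positive and 6 negative differences. The Kupffer cell marker Cd5l was at 237 ± 26.5 CPM in KO and 168 ± 29.1 CPM in WT, while Lyz2 was at 536 ± 81.5 CPM in KO and 810 ± 162 CPM in WT (limma adjusted p = 0.134 and 0.12). Cholangiocyte markers summed to a median of 200.9 CPM in KO and 389 CPM in WT, with all 3 tested members negative. The sum was carried by Spp1, which lies on chromosome 5 as Hsd17b13 does, while the other tested members lie on other chromosomes. Stellate cell markers summed to a median of 1029 CPM in KO and 1192 CPM in WT (2 tested members positive, 4 negative), and endothelial markers to 343 CPM in KO and 284.5 CPM in WT (7 of 7 positive). No marker in these lists was called, beside 0.152% of all genes tested (limma, adjusted p under 0.05). At an unadjusted p under 0.05, 3 macrophage markers were higher and 4 lower in KO. Of stellate markers 1 was higher and 3 lower, of cholangiocyte markers 3 were lower, and of endothelial markers 1 was higher. Hepatocyte markers gave 0. Of all genes tested 4.51% were higher and 5.29% lower in this way. Groups did not overlap for 2 macrophage markers and 1 stellate marker, beside 0.893% of all genes tested. The part of cell makeup in the values that follow was not tested. Of 10 adipocyte markers 3 were in the table, among them Fabp4, and summed to 13.2 to 20.7 CPM in KO and 14.3 to 26.0 CPM in WT; Adipoq, Lep and Plin1 were not analysed here. Of 7 markers of pancreatic acinar cells 2 were in the table, and they summed to 168 CPM in KO mouse 3 and 374 CPM in WT mouse 1, with a median of 6.73 CPM in KO and 6.24 CPM in WT.

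The comparison of KO with WT asks whether these transcripts differ when the droplet protein is missing. No difference beyond the spread between mice was detected in the 8 genes: 0 rose and 0 fell, where 0.152% of all 9186 genes tested passed (limma, Benjamini-Hochberg adjusted p under 0.05). At an unadjusted p under 0.05 the count was also 0 of 8, beside 9.8% of all genes tested. No gene of the 8 had groups that did not overlap, beside 0.893% of all genes tested (0.359% higher and 0.533% lower in KO). The log2 difference of log2(CPM + 1), KO minus WT, was positive for 7 of 8 genes, with a median of 0.09, while 45.6% of all genes tested were positive and their median was -0.01. All 8 had a mean over the 12 libraries of at least 10 CPM, the minimum for the test.

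**Figure D1:**
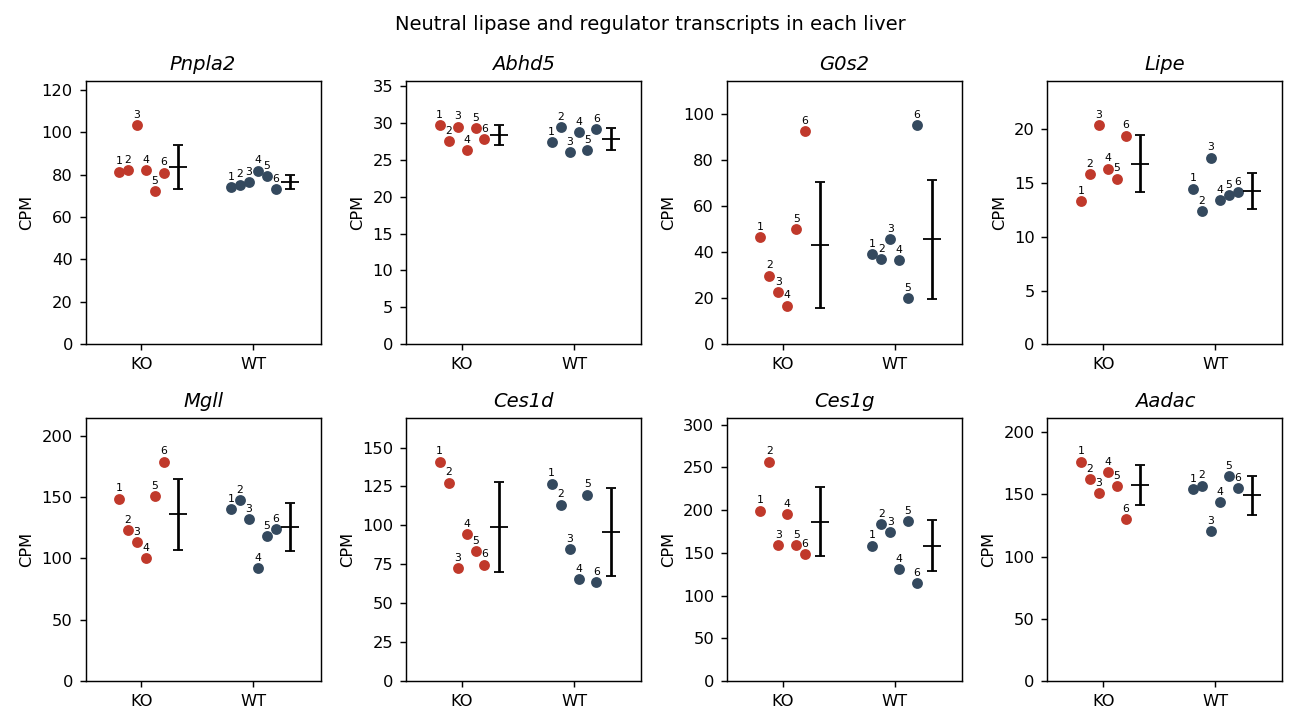
Transcript level in CPM (y axis, from 0) of the 8 measured genes in each liver, KO left and WT right; points are mice, numbered, and the bar beside them is the mean with its SD. The groups overlap in all 8 genes, G0s2 spreads from 16.8 to 92.6 CPM in KO and from 20.1 to 95.4 CPM in WT, and Abhd5 stays between 26.0 and 29.7 CPM in all 12 livers.

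No difference in the transcript of ATGL was detected. Pnpla2 (ENSMUSG00000025509, chromosome 7, 141455198 to 141460743, mm10, protein coding) had 72.3, 81.9 and 103.5 CPM as its lowest, median and highest values in KO, against 73.1, 75.9 and 81.9 CPM in WT. KO mouse 3 held the highest value and the other KO mice reached at most 82.3 CPM, so that KO mice 2, 3 and 4 exceeded every WT mouse and KO mouse 5 lay below all of them. The means were 83.8 ± 10.4 CPM in KO and 76.7 ± 3.29 CPM in WT (log2 difference 0.12, SE 0.07, limma adjusted p = 0.655). The 95% interval of this difference runs from 0.976-fold to 1.21-fold. Without KO mouse 3, the liver with 168 CPM of acinar pancreas markers, the log2 difference was 0.06 (limma adjusted p = 0.828). The part of those markers in the value of that liver was not tested.

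The coactivator of ATGL had the smallest spread of the set over both genotypes. Abhd5 (ENSMUSG00000032540, chromosome 9, 122351608 to 122381524) had 26.3, 28.6 and 29.7 CPM as its lowest, median and highest values in KO, against 26.0, 28.1 and 29.5 CPM in WT. The groups covered nearly the same range and only KO mice 1 and 3 exceeded the highest WT value, with means of 28.4 ± 1.37 CPM in KO and 27.9 ± 1.49 CPM in WT (log2 difference 0.03, SE 0.05, limma adjusted p = 0.921). Its interval, 0.944-fold to 1.10-fold, was the narrowest of the 8. The SD between mice of a genotype, 0.0716 on the log2 scale, was higher than that of only 7.33% of the genes tested.

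The inhibitor of ATGL varied most. G0s2 (ENSMUSG00000009633, chromosome 1, 193272161 to 193273217) encodes a small protein that binds ATGL and blocks it. It had 16.8, 38.2 and 92.6 CPM as its lowest, median and highest values in KO, against 20.1, 38.0 and 95.4 CPM in WT. A single mouse of each genotype, KO mouse 6 and WT mouse 6, lay far above the rest, which reached 50.2 CPM in KO and 45.8 CPM in WT, while KO mouse 4 was the lowest of all. The means were 43.1 ± 27.6 CPM in KO and 45.7 ± 25.8 CPM in WT (log2 difference -0.15, SE 0.39, limma adjusted p = 0.951). The 95% interval of the difference was wide, 0.502-fold to 1.63-fold, and a change of that size or larger could go uncalled at this spread. The SD between mice of a genotype was 0.790 on the log2 scale, above that of 99.6% of the genes tested.

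The regions around the starts of these 3 genes are shown because the activator, the inhibitor and their common target differ so much in spread between livers. Each is the RefSeq window from 250 bases before to 50 bases after the start (build GRCm38.p6, 5′ to 3′ on the gene's strand), chr7:141454938-141455237 on the plus strand for Pnpla2, chr9:122351366-122351665 on the plus strand for Abhd5 and chr1:193273139-193273438 on the minus strand for G0s2. Capitals mark matches, on either strand, to the GC box GGGCGG, the CRE half-site TGACG and the nuclear receptor half-site AGGTCA.
Pnpla2: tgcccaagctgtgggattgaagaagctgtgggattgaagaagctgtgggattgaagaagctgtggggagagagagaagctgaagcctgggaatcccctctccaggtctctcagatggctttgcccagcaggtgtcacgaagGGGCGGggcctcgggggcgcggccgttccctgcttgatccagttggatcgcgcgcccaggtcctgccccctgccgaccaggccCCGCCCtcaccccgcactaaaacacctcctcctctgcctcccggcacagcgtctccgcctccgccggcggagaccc
Abhd5: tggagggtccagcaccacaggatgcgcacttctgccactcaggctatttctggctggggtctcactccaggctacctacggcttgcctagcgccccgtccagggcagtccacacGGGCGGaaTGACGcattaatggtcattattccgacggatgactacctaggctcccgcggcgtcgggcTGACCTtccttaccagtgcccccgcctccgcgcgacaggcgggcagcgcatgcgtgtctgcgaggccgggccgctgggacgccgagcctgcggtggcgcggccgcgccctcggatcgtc
G0s2: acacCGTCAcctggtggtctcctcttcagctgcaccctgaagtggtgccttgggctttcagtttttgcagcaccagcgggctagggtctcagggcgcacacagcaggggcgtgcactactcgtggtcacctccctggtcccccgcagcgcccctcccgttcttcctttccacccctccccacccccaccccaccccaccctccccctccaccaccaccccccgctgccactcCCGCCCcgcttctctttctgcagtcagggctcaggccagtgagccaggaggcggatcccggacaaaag
The Pnpla2 window held 2 GC boxes. The Abhd5 window held 1 GC box, 1 CRE half-site and 1 nuclear receptor half-site, and the G0s2 window held 1 GC box and 1 CRE half-site; no matches overlapped. Among 32851 mouse windows of this length, 35.7% held the GC box, 20.8% the CRE half-site and 16.3% the nuclear receptor half-site. The E-box CACGTG, the FOXO site TGTTTAC and the TATA box TATAAA, present in 7.2%, 3.6% and 13.6% of those windows, were searched as well and had no match in these 3 windows. Of the 9 listed genes 8 had an entry in the RefSeq table. A match is a description of the letters only.

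No difference between genotypes was detected in either regulator relative to ATGL. The log2 ratio of G0s2 to Pnpla2 within a liver was -1.15 ± 0.955 in KO and -0.89 ± 0.747 in WT (difference -0.27, SE 0.495, exact two-sided permutation p = 0.597, adjusted over 2 ratios 0.597). It ranged from -2.23 in KO mouse 4 to 0.38 in WT mouse 6. Only in KO mouse 6 and WT mouse 6 was it above 0. Both ratios are of CPM not divided by exon length (871 bases for G0s2, 3020 for Pnpla2), so 0 does not mark equal levels. Divided by exon length, mean G0s2 was higher than mean Pnpla2 in KO (49.5 ± 31.7 and 27.8 ± 3.44 CPM per kb). The same held in WT (52.4 ± 29.6 and 25.4 ± 1.09 CPM per kb). For Abhd5 to Pnpla2 the log2 ratio was -1.52 ± 0.170 in KO and -1.43 ± 0.105 in WT (difference -0.09, SE 0.0815, exact two-sided permutation p = 0.286, adjusted 0.571). With 6 mice against 6 this test cannot give a p below 0.00216.

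Hormone-sensitive lipase had the smallest p of the 8 genes and was not called. Lipe (ENSMUSG00000003123, chromosome 7, 25379527 to 25398710), which cuts diglyceride and also cholesteryl and retinyl esters, had 13.4, 16.1 and 20.4 CPM as its lowest, median and highest values in KO, against 12.4, 14.0 and 17.4 CPM in WT. KO mice 3 and 6 lay above every WT mouse and the other 4 KO mice lay within the WT range. The means were 16.8 ± 2.64 CPM in KO and 14.3 ± 1.68 CPM in WT (log2 difference 0.21, SE 0.10, limma adjusted p = 0.517, unadjusted 0.0518). The interval runs from 0.999-fold to 1.35-fold. An antisense gene, 4732471J01Rik, covers all 19184 bases of Lipe at 0.818 ± 0.295 CPM in KO and 0.856 ± 0.106 CPM in WT. Whether counting used the strand is not stated, and without strand the reads of both genes cannot be told apart. Likewise G0s2 lies wholly inside Lamb3 on the other strand (3.99 ± 0.472 CPM in KO, 4.74 ± 0.400 CPM in WT). Abhd5 overlaps an antisense gene over 950 bases, and Mgll overlaps annotated genes on both strands. Those on the strand of Mgll had means of 1.847 to 2.51 CPM in KO and 1.845 to 2.255 CPM in WT. A gene on the strand of Ces1d was at 1.649 ± 1.475 CPM in KO and 0.6835 ± 0.4324 CPM in WT. On the same strand, counting by strand does not separate the reads.

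Mgll (ENSMUSG00000033174, chromosome 6, 88724412 to 88828360), whose product releases glycerol and the last fatty acid and also degrades the endocannabinoid 2-arachidonoylglycerol, showed no detected difference. Its lowest, median and highest values were 100.1, 136 and 179 CPM in KO, against 92.3, 128 and 148 CPM in WT. KO mice 1, 5 and 6 lay above every WT mouse, while none lay below. The means were 136 ± 29.0 CPM in KO and 126 ± 19.6 CPM in WT (log2 difference 0.10, SE 0.14, limma adjusted p = 0.892), with an interval from 0.868-fold to 1.32-fold. With 1 mouse left out the log2 difference ran from 0.014 (without WT mouse 4) to 0.18 (without KO mouse 4).

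None of the 3 esterases of the endoplasmic reticulum was called, and Ces1g and Aadac had the highest mean levels of the set in CPM. Ces1g (ENSMUSG00000057074, chromosome 8, 93302369 to 93337308), a hepatic carboxylesterase whose loss in mice leads to fatty liver, had 149, 177 and 257 CPM as its lowest, median and highest values in KO, against 115, 166 and 188 CPM in WT. KO mice 1, 2 and 4 lay above every WT mouse. The means were 186 ± 40.4 CPM in KO and 158 ± 29.5 CPM in WT (log2 difference 0.23, SE 0.15, limma adjusted p = 0.688), with an interval from 0.941-fold to 1.46-fold. The log2 difference was 0.13 without KO mouse 2, the liver with the most Ces1g, and 0.14 without WT mouse 6, the liver with the least.

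Ces1d (ENSMUSG00000056973, chromosome 8, 93166068 to 93197838) encodes the triacylglycerol hydrolase that supplies fat to VLDL in mouse liver. It had 72.5, 88.9 and 141 CPM as its lowest, median and highest values in KO, against 63.4, 99.1 and 127 CPM in WT. KO mice 1 and 2 lay above every WT mouse and no KO mouse lay below, and the values spread about as widely in both genotypes, with a coefficient of variation of 29.0% in KO and 29.3% in WT. The means were 98.9 ± 28.7 CPM in KO and 95.7 ± 28.0 CPM in WT (log2 difference 0.05, SE 0.21, limma adjusted p = 0.967).

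Aadac (ENSMUSG00000027761, chromosome 3, 60025717 to 60040160), an arylacetamide deacetylase with lipase activity, had 130.1, 160 and 176 CPM as its lowest, median and highest values in KO, against 121, 155 and 165 CPM in WT. KO mice 1 and 4 lay above every WT mouse. The means were 157 ± 16.0 CPM in KO and 149 ± 15.6 CPM in WT (log2 difference 0.08, SE 0.08, limma adjusted p = 0.848). No transcript of the 8 genes had a copy with at least 95% identity over 500 bases in the annotation. The longest match found, between Ces1d and Ces1g, was 81.2% identical over 1777 bases.

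**Figure D2:**
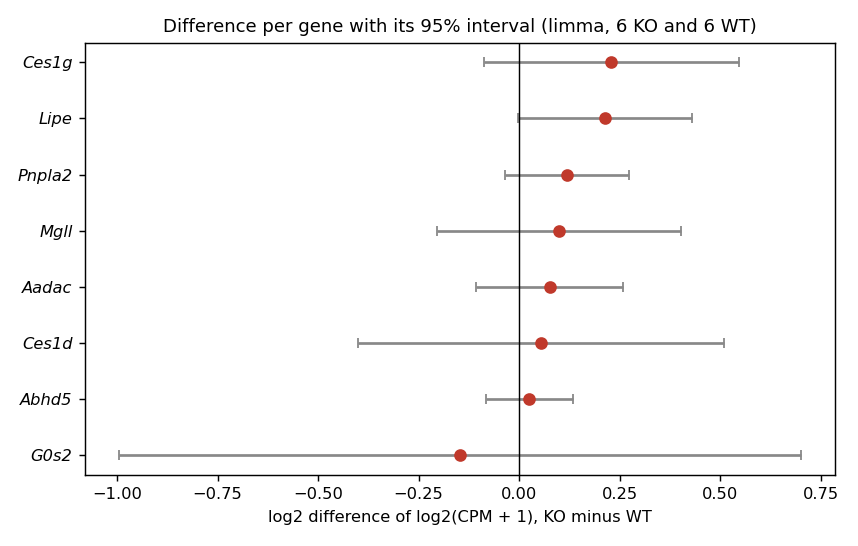
Log2 difference of log2(CPM + 1), KO minus WT (x axis), for the 8 measured genes; points are limma estimates and bars their 95% intervals over 6 KO and 6 WT mice. All 8 intervals include 0, with Abhd5 the narrowest and G0s2, from -0.99 to 0.70, the widest.

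Divided by the length of the annotated exons, the mean levels of the 8 transcripts had the same order in both genotypes. Aadac stood at 105 ± 10.7 CPM per kb in KO and 99.4 ± 10.4 in WT, ahead of Ces1g (78.1 ± 16.9 and 66.3 ± 12.4 CPM per kb in KO and WT). Aadac exceeded Ces1g in all 12 livers. G0s2 followed with 49.5 ± 31.7 CPM per kb in KO and 52.4 ± 29.6 in WT, then Ces1d with 41.8 ± 12.1 in KO and 40.4 ± 11.8 in WT. These genes did not differ in level beyond their spread, since G0s2 exceeded Ces1d in 5 of 12 livers. Ces1g exceeded G0s2 in 10 of 12 livers, and Ces1d exceeded Pnpla2 in 11 of 12. Pnpla2 stood at 27.8 ± 3.44 CPM per kb in KO and 25.4 ± 1.09 in WT, and Mgll at 26.7 ± 5.70 in KO and 24.7 ± 3.86 in WT. Their levels could not be ordered either, as Pnpla2 was ahead in 5 of 12 livers. Abhd5, at 4.76 ± 0.230 CPM per kb in KO and 4.68 ± 0.250 in WT, and Lipe, at 2.86 ± 0.449 in KO and 2.43 ± 0.285 in WT, came last in all 12 livers, in this order. Exon length is the union over all annotated transcripts, which understates the level of genes with long rarely used exons.

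**Figure D3:**
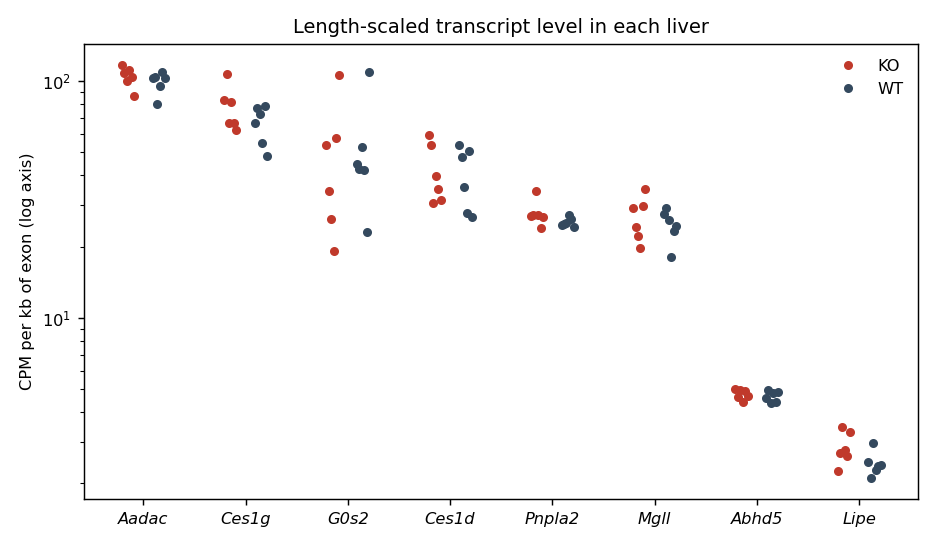
Transcript level per kb of exon (y axis, log scale, CPM per kb) of the 8 genes in each liver, KO points left of WT points. Aadac lies between 80.4 and 118 CPM per kb, Abhd5 and Lipe lie below 5 CPM per kb in all 12 livers, and G0s2 covers the widest range, from 19.2 to 109.5 CPM per kb.

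No pair of the 8 genes passed the adjusted threshold for varying together across livers, though Ces1d and Ces1g passed under some alternatives. Over all 28 pairs of the 8 genes, correlations of log2(CPM + 1), after subtraction of the genotype mean, ran from -0.779 to 0.827 (Pearson's r, n = 12 livers). After adjustment over the 28 pairs 0 passed a permutation test within genotype, and 3 had an unadjusted p under 0.05 (4 by Spearman's rho, of which 0 passed after adjustment).

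The highest r was that of the carboxylesterase genes Ces1d and Ces1g, 0.827 (permutation p = 0.0028, adjusted 0.0784) with rho 0.762 (permutation p = 0.0096, adjusted 0.134). The r was 0.837 within KO and 0.822 within WT (n = 6 each), and 0.941 over all livers without KO mouse 1 and WT mouse 1, those farthest from the median of Ces1d. The pair passed with quantile normalization (permutation test, adjusted p = 0.0437), with median-of-ratios scaling (0.0456) and without WT mouse 1 (0.0412). Whether reads were shared between these related transcripts was not tested.

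The lowest r was that of Lipe and Aadac, -0.779 (permutation p = 0.00663, adjusted 0.0928) with rho -0.601 (permutation p = 0.057, adjusted 0.319), with -0.794 within KO and -0.792 within WT, and -0.73 without KO mouse 3 and WT mouse 3. G0s2 and Mgll, the inhibitor of the first lipase and the last lipase, had r = 0.654 (permutation p = 0.0352, adjusted 0.328) and rho = 0.713 (permutation p = 0.024, adjusted 0.168). Here r was 0.995 within KO and 0.118 within WT (n = 6 each), a difference that was not tested, and 0.656 over all livers without KO mouse 6 and WT mouse 6. Pnpla2 and G0s2 had r = -0.475 (permutation p = 0.17, adjusted 0.499) and rho = -0.741 (permutation p = 0.0083, adjusted 0.134), with -0.511 without KO mice 3 and 5.

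**Figure D4:**
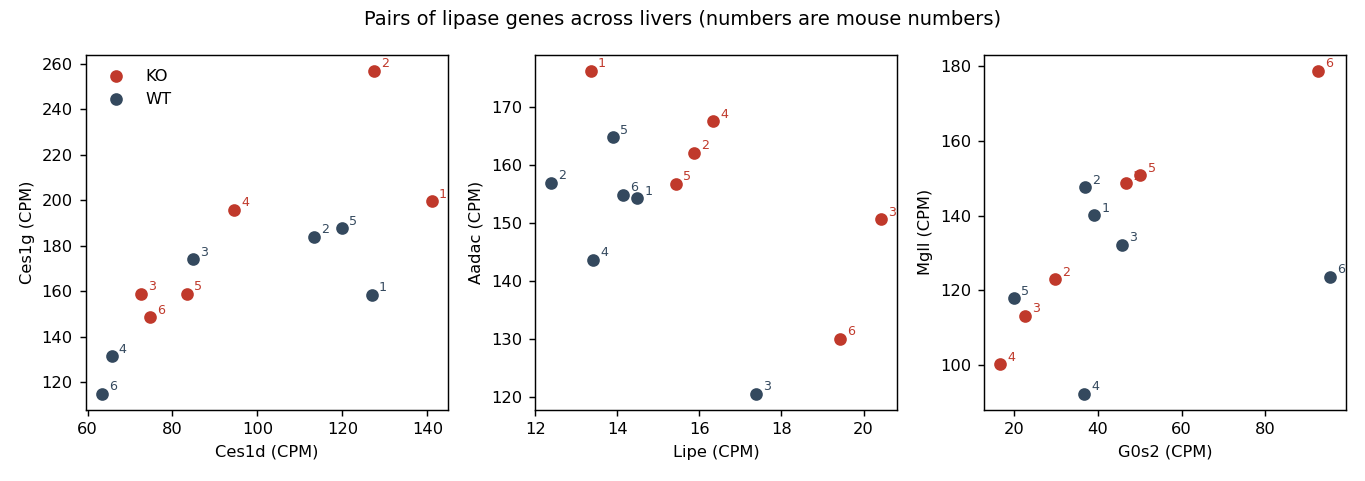
Levels in CPM of 3 pairs of genes (Ces1d and Ces1g, Lipe and Aadac, G0s2 and Mgll) in each liver; red points are KO, dark points WT, and numbers are mouse numbers. Ces1d and Ces1g have r of 0.837 in KO and 0.822 in WT, Lipe and Aadac -0.794 in KO and -0.792 in WT, and G0s2 and Mgll 0.995 in KO and 0.118 in WT, a difference that was not tested.

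The genes most like Pnpla2 and G0s2 across livers were looked up as a description, by the highest r of centred log2 values among the genes tested (n = 12 livers, and no p since the genes were picked for their r). For Pnpla2 they were Deptor, which encodes an inhibitor of mTOR (r = 0.881, rho = 0.706), Arhgef12 (r = 0.862, rho = 0.706) and Tldc1 (r = 0.842, rho = 0.741). Without KO mice 3 and 5, farthest from the median of Pnpla2, these r were 0.744, 0.716 and 0.629. Deptor had 357 CPM in KO mouse 3, against 238 to 296 CPM in the other KO mice and 247 to 314 CPM in WT.

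For G0s2 they were Inhbe, a hepatic activin subunit gene (r = 0.93, rho = 0.895), the secreted protease gene Adamts1 (r = 0.929, rho = 0.895) and Armt1 (r = 0.919, rho = 0.916). Without KO mouse 6 and WT mouse 6 these r were 0.835, 0.891 and 0.826. Inhbe was at 202 CPM in KO mouse 6 and 157 CPM in WT mouse 6, the highest of each genotype, and at 67.2 CPM in KO mice 3 and 4, the KO livers with the least G0s2. None of these 6 genes was called between genotypes (limma adjusted p of 0.759 to 0.989).

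Around the lipases, 8 lists of genes that act beside them, shield the droplet, control their transcription or respond to the fatty acids they release were read in the same fit. Of 117 tested genes in these lists 0 rose and 0 fell, where 0.109% of all genes tested rose and 0.0435% fell. At an unadjusted p under 0.05, 9 were higher and 2 lower in KO, beside 4.51% and 5.29% of all genes tested. The median log2 difference was 0.04, beside -0.01 for all genes tested.

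Among the other carboxylesterases, 10 of 14 listed genes were tested and 9 had positive differences (median 0.10). Ces1f, a liver esterase of the same chromosome 8 cluster, was the only 1 of the 117 tested genes of the 8 lists whose groups did not overlap. Of all genes tested 0.893% did not overlap in either direction, and 0.359% were higher in KO in this way. Ces1f had 66.5, 72.3 and 82.7 CPM as its lowest, median and highest values in KO, against 38.0, 50.04 and 65.6 CPM in WT. Every KO liver lay above every WT liver, by less than 1 CPM at the nearest, and the means were 72.5 ± 5.89 CPM in KO and 52.1 ± 11.5 CPM in WT. Ces1f did not pass over all genes (log2 difference 0.49, SE 0.12, limma adjusted p = 0.152, and 0.0491 to 0.347 over 22 alternatives). Its exact permutation p of 0.00216 is the smallest possible and is fixed for any gene whose groups do not overlap, so it adds nothing to that description. Ces1e (30.7 ± 4.36 CPM in KO, 25.2 ± 6.04 in WT, limma adjusted p = 0.512), Ces2a (31.7 ± 7.65 in KO, 26.3 ± 8.13 in WT, 0.695) and the abundant plasma esterase gene Ces1c (1172 ± 64.6 in KO, 1088 ± 162 in WT, 0.753) came next by p and were not called.

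The remaining intracellular lipases gave 15 tested genes of 19 listed, 11 of them with positive differences (median 0.03). Lyplal1 was at 12.2 ± 0.665 CPM in KO and 10.8 ± 0.768 CPM in WT (limma adjusted p = 0.34). Abhd4 (61.4 ± 5.32 CPM in KO, 56.7 ± 2.97 in WT, 0.616), the monoglyceride lipase gene Abhd6 (14.1 ± 0.951 in KO, 13.0 ± 1.94 in WT, 0.711) and Lipa, the acid lipase of the lysosome (364 ± 29.9 in KO, 388 ± 35.1 in WT, 0.77), followed without a call.

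Of 12 secreted lipases and their regulators, all tested, 10 had positive differences (median 0.10). Lpl, the lipase that takes fatty acids from circulating lipoproteins and is made by macrophages in the injured liver, was at 251 ± 29.98 CPM in KO and 330 ± 65.2 CPM in WT (log2 difference -0.38, SE 0.12, limma adjusted p = 0.272). KO mouse 2 had its lowest value, 197 CPM, and WT mouse 4 its highest, 408 CPM. The macrophage markers summed to a median of 1733 CPM in KO and 2084 CPM in WT, with members on both sides (Gpnmb -0.48 and Clec4f 0.59 as log2 differences), and their part in the value of Lpl was not tested; in bulk liver, fewer cells of a type and less RNA per cell cannot be told apart. Pcsk6, a proprotein convertase, was at 119 ± 8.42 CPM in KO and 104 ± 11.4 CPM in WT (limma adjusted p = 0.328). Gpihbp1, the endothelial anchor of LPL (14.4 ± 2.78 CPM in KO, 12.2 ± 1.39 in WT, 0.602), and the endothelial lipase gene Lipg (21.2 ± 7.65 in KO, 16.7 ± 8.90 in WT, 0.713) were not called.

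Proteins that coat the droplet or act on ATGL there gave 18 tested genes of 22 listed, 13 with positive differences (median 0.04). Fitm1, which takes part in droplet formation, was at 11.9 ± 1.31 CPM in KO and 9.41 ± 1.51 CPM in WT (limma adjusted p = 0.278). All KO mice but KO mouse 3 were higher than the highest WT mouse. The perilipin gene Plin4 was at 70.5 ± 23.5 CPM in KO and 51.7 ± 7.59 CPM in WT (0.501). Plin2, the main droplet coat of the fatty hepatocyte, was at 592 ± 89.0 CPM in KO and 679 ± 116 CPM in WT (limma adjusted p = 0.672), and Cideb, a droplet protein of the hepatocyte, at 158 ± 7.94 in KO and 149 ± 11.8 in WT (0.694).

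Transcription factors and hormone pathway genes known to act on the lipases gave 17 tested genes of 20 listed, 12 with positive differences (median 0.03). Pparg, a regulator of fat storage that activates Pnpla2 in mouse adipocytes, was at 22.3 ± 1.17 CPM in KO and 20.1 ± 1.08 CPM in WT (limma adjusted p = 0.328). Ppara, the receptor that responds to fatty acids in the hepatocyte, was at 142 ± 14.2 CPM in KO and 125 ± 14.9 CPM in WT (0.501). Egr1 (97.3 ± 42.3 CPM in KO, 150.3 ± 65.3 in WT, 0.552) and Ppargc1a (16.2 ± 4.78 in KO, 13.6 ± 1.35 in WT, 0.751) were not called.

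Targets of PPARα, which fatty acids released by ATGL are known to activate in mouse liver, had differences on both sides of 0. Of 20 tested genes of 21 listed 10 were positive and 10 negative (median -0.0025), and 0 had an unadjusted p under 0.05. The kinase gene Pdk4 was at 29.9 ± 11.5 CPM in KO and 52.2 ± 26.5 CPM in WT (log2 difference -0.70, limma adjusted p = 0.536), and the hormone gene Fgf21 at 25.8 ± 12.2 CPM in KO and 34.3 ± 12.9 CPM in WT (0.76). Vnn1 (89.2 ± 14.1 CPM in KO, 79.1 ± 8.27 in WT, 0.682) and Acot2 (21.1 ± 5.36 in KO, 25.1 ± 6.90 in WT, 0.759) were not called.

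Among lipogenic targets of SREBP1c and ChREBP all 16 listed genes were tested and 13 were positive (median 0.07). Thrsp, which promotes fatty acid synthesis, was at 30.9 ± 15.8 CPM in KO and 15.3 ± 9.39 CPM in WT (log2 difference 0.96, SE 0.43, limma adjusted p = 0.483). Its values ran from 8.97 to 51.5 CPM in KO and from 6.99 to 29.5 CPM in WT. KO mice 2, 4, 5 and 6 were higher than the highest WT mouse. Acacb (54.9 ± 15.2 CPM in KO, 40.7 ± 7.29 in WT, 0.501), Pklr (109 ± 11.2 in KO, 93.0 ± 21.5 in WT, 0.593) and Tkfc (230 ± 31.9 in KO, 206 ± 35.9 in WT, 0.736) were not called.

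Of 9 genes that respond to fasting and insulin, all tested, 5 were positive (median 0.05). G6pc, glucose-6-phosphatase, was at 151 ± 75.9 CPM in KO and 221 ± 53.8 CPM in WT (log2 difference -0.64, SE 0.28, limma adjusted p = 0.451), and Igfbp1 at 167 ± 97.5 CPM in KO and 260 ± 111 CPM in WT (0.663). Pck1 (1799 ± 489 CPM in KO, 1593 ± 331 in WT, 0.839) and Pdk2 (81.9 ± 14.9 in KO, 76.4 ± 12.3 in WT, 0.878) were not called.

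**Figure D5:**
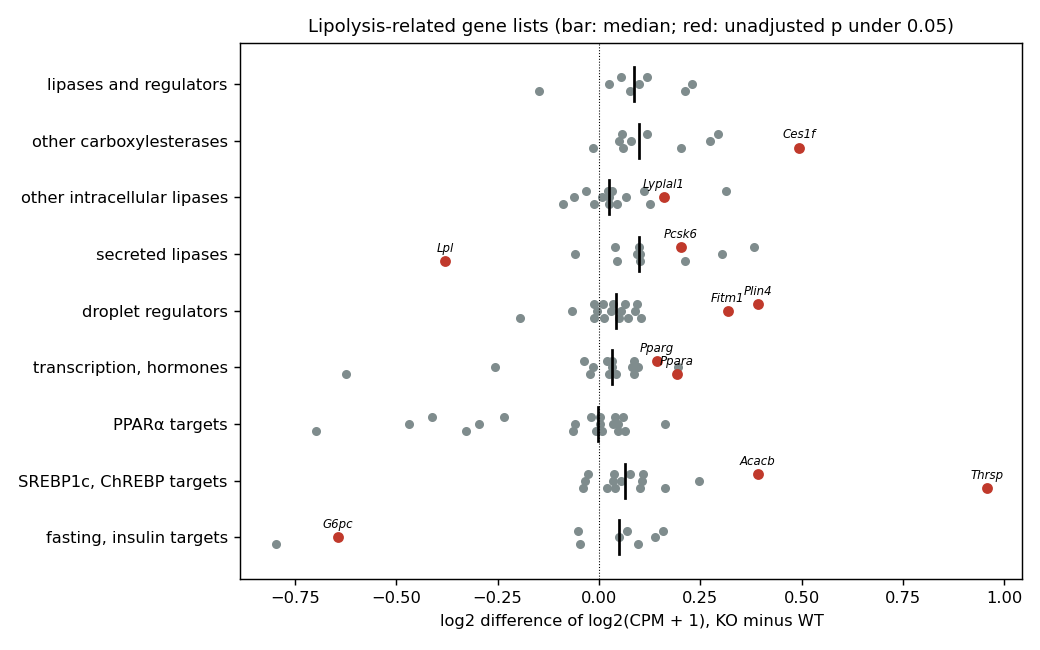
Log2 difference of log2(CPM + 1), KO minus WT (x axis), of each tested gene in the set of 8 lipases and regulators and in the 8 surrounding lists (y axis); black bars are medians, red points with names have an unadjusted p under 0.05. The 8 lipases and regulators lie between -0.15 and 0.23, and the named genes reach from -0.64 (G6pc) to 0.96 (Thrsp) without a call.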

How the data were processed

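Liver RNA of 6 KO and 6 WT mice was measured. Per the labels' protocols, libraries came from total RNA depleted of globin and rRNA and kept the strand, whereas the molecule field names polyA RNA. The submitters' processing notes name mm10, Partek 10.0, STAR 2.7.3a and DESeq2 1.14.1 with no role for each, and no source names the counting tool or its use of strand. The deposited values are CPM, since each column sums to 1000000 over 20143 genes. Of values under 0.5 CPM, 71.9% to 77.2% lay within 0.02 of a whole multiple of a common step, so depth was estimated but whole reads were not recovered. Symbols and positions came from GENCODE M21 (20055 IDs matched, 88 did not and hold 9.59% of the counts).

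CPM were analysed as log2(CPM + 1) where the mean over libraries reached 10 CPM, by limma 3.58.1 in R 4.3.3 (mean trend, two-sided, Benjamini-Hochberg over all 9186 genes, threshold 0.05, no covariate). Ratios were compared by exact permutation tests and correlations by 100000 permutations within genotype (Python 3.11.15). Copies were sought with BLASTN 2.17.0. The fit was checked on simulated data. Every listed gene was named, with Hsd17b13, up to 4 tested genes with the smallest p per surrounding list and the 3 genes nearest to Pnpla2 and G0s2; the same steps for Pnpla3 were not run. Gm8730, Rplp0, Lamb3, the antisense 4732471J01Rik and the single markers Fabp4, Cd5l, Lyz2, Spp1, Gpnmb and Clec4f were named after their values were seen. Members and lists were chosen with earlier results of these data known. Alternatives changed the pseudocount, filter, scaling, model and livers used.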

Additional observations from a re-analysis of the deposited data

Results flagged for a closer look

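The Pnpla2 value of KO mouse 3, 103.5 CPM, stood far from the other KO mice, the next at 82.3 CPM: the gap took 0.68 of the range of the group. That liver also held 168 CPM of acinar pancreas markers, against 5.20 to 7.09 CPM in the other KO livers; the part of this in the value was not tested. WT mouse 1, with 374 CPM of those markers, had 74.3 CPM of Pnpla2, within the range of the other WT livers.

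The G0s2 value of WT mouse 6, 95.37 CPM, stood as far from the other WT mice, the next at 45.8 CPM (gap 0.658 of the range). KO mouse 6 had 92.6 CPM. The gaps of Pnpla2 and G0s2 were taken on CPM, not on log2(CPM + 1), the scale of the tests, where a high value stands less far apart. For normally distributed values chance alone marks about 1 in 20 groups in this way. In all, 20 groups were checked: 16 of the 8 genes and 4 of the ratios.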

How the results depend on the processing

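None of the 8 lipase genes was called under any of the 23 alternatives in which it was tested. At a mean of at least 100 CPM only Mgll, Ces1g and Aadac were tested, so each other gene had 22 alternatives. Of 179 log2 differences of these genes 171 kept their direction and 8 changed sign: Abhd5 was -0.0095 with array weights and -0.0054 without KO mice 1 and 3, and with 1 mouse left out Ces1d ran from -0.056 to 0.15 and G0s2 from -0.41 to 0.093. In the fits that left out 1 mouse, Abhd5 and the remaining genes kept their sign. There the ranges were 0.057 to 0.16 for Pnpla2, 0.0068 to 0.046 for Abhd5 and 0.014 to 0.18 for Mgll. They were 0.13 to 0.29 for Ces1g, 0.016 to 0.13 for Aadac and 0.16 to 0.27 for Lipe. Pnpla2, 0.12 over all mice, was 0.06 without KO mouse 3 and 0.05 without KO mice 1 and 3. Over all genes the count of calls, 14 (10 higher, 4 lower), was 29 (16 lower) with no filter, 31 (16 and 15) at a mean of at least 1 CPM, 4 (1 higher) at 100 CPM, 27 (16 and 11) with median-of-ratios scaling, 35 (19 and 16) with array weights and 89 (76 and 13) without KO mice 1 and 3. With quantile normalization 8 were lower. With 1 mouse left out it ran from 9 (without WT mouse 3) to 25 (without KO mouse 3), with 7 to 19 higher and 2 to 6 lower. Among the surrounding lists the count was 1 (Ces1f, adjusted p = 0.0491) with array weights, and 0 in every fit that left out 1 mouse. The mouse numbers do not pair the samples: correlations of same-numbered livers ran from -0.514 to 0.388. With the replicate block 11 genes were called (7 higher, 4 lower), none of them a lipase. For Ces1d and Ces1g r was 0.961 under this block. The block leaves same-numbered livers with equal and opposite values, and the permutation test shuffled these as separate livers. Its p-values for pairs are therefore too small, and the 3 of 28 pairs that passed, against 0 in the main test, are not counted. Pairs passing were 1 with quantile normalization, 1 with median-of-ratios scaling and 0 to 1 with 1 mouse left out (1 without WT mouse 1); in these Ces1d and Ces1g passed (adjusted p = 0.0437, 0.0456 and 0.0412). The cause was not tested. The ratio of Pnpla3 to Pnpla2, which was planned, was not run. The interval of G0s2 spans 0.502-fold to 1.63-fold, so changes of that size either way could be missed.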
